A study of Mus musculus with 4 samples.

Results

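MiR-128 and miR-129 are a pair of brain-enriched microRNAs that are each made from 2 gene copies in the mouse. They were taken from a deposited table of 942 mature miRNAs as the rows named miR-128 or miR-129, all copies and arms included, which gave 6 rows. Rows miR-128-3p, miR-128-1-5p and miR-128-2-5p belong to miR-128, and rows miR-129-5p, miR-129-2-3p and miR-129-1-3p to miR-129. Small RNA of the brain cortex was sequenced from 4 mice of strain B6C3 aged 9 months. WT1 and WT2 were wild type, and APP3 and APP4 carried the APPswe/PS1deltaE9 transgenes (AD mice). These encode familial Alzheimer forms of the amyloid precursor protein (APPswe, of part mouse and part human sequence) and of human presenilin 1 (ΔE9), and their expression is targeted to neurons. According to the methods of the study, WT1 and APP4 were siblings (group 1), and so were WT2 and APP3 (group 2). Each group thus held 1 mouse per genotype, and each genotype 2 mice.

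A miRNA hairpin is cut by Drosha and Dicer into a short duplex with a 5p and a 3p arm. The arm loaded into an Argonaute protein guides it to mRNAs that pair with the seed, bases 2 to 8, and lowers their translation and stability. MiR-128-3p is one of the most abundant miRNAs of neurons. Mice that lack it in forebrain neurons become hyperactive and die of seizures, and its targets include ion channels and members of the ERK pathway. MiR-129-5p is known for work on the potassium channel Kv1.1 and on the downscaling of synapses after raised activity, and both arms of miR-129 are found in brain. Raised network excitability is a known feature of mice that overproduce amyloid β, so the comparison asks whether the cortex of AD mice held other amounts of these miRNAs than that of their WT siblings.

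The mature sequences are shown because they decide which copies could be told apart in the counts. Sequences were taken from RefSeq (GRCm38.p6), where 5 of the 6 rows were matched, and capitals mark the seed.
miR-128-3p: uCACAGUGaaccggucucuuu
miR-128-1-5p: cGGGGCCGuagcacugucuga
miR-128-2-5p: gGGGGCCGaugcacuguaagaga
miR-129-5p: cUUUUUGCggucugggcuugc
miR-129-2-3p: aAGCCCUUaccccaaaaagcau
The miR-128-3p of both hairpins is the same sequence, and so is the miR-129-5p of both hairpins, so these rows summed the 2 copies. The other rows are each named for 1 copy. The 3p stretches of the miR-129 hairpins are closely alike, and whether reads with a sequence error or a changed end were split correctly between miR-129-2-3p and miR-129-1-3p was not tested. Both 5p arms of miR-128 hold the same seed, GGGGCCG, although the rest of their sequences differ. MiR-129-1-3p was the row with no matched mature sequence.

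The hairpins are shown to place the arms, with the matched mature sequences in capitals and each read 5′ to 3′ on the strand of its gene.
Mir128-1: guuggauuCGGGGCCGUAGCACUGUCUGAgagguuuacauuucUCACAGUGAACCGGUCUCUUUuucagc
Mir128-2: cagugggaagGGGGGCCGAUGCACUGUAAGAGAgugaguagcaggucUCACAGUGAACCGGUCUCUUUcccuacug
Mir129-1: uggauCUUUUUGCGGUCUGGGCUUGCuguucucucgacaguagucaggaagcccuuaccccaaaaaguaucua
Mir129-2: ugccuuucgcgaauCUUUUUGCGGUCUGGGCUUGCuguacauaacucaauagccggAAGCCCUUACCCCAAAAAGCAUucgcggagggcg
On GRCm38, Mir128-1 lies at chr1:128202361-128202430 on the plus strand, in an intron of R3hdm1, and Mir128-2 at chr9:112118636-112118711 on the minus strand, in an intron of Arpp21, which encodes a cAMP-regulated phosphoprotein. Mir129-1 lies at chr6:29022619-29022691 on the plus strand, within an exon of the long noncoding RNA Gm3294, and Mir129-2 at chr2:94241364-94241453 on the minus strand, in an intron of Mir670hg, likewise a long noncoding RNA. Each hairpin has the same strand as its host. Aligned end to end, the copies of miR-128 shared 54 of 70 aligned bases (77.1%) and those of miR-129 shared 61 of 72 (84.7%). Mir129b, annotated opposite to Mir129-2, was not analysed here.

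The libraries held between 19048747 and 26085776 miRNA reads, the sum over all rows, and levels below are reads per 1000000 of that sum (RPM). At this depth 3 reads, the limit that a count of 0 allows, correspond to between 0.115 and 0.157 RPM. Library APP4 stood apart for 8 epithelial marker miRNAs (miR-96, miR-182, miR-183 and 5 members of the miR-200 family), whose summed level was 5862 RPM against 576 to 1024 RPM in the other libraries. Their part in the results below was not tested. The 5 neuronal markers fixed as a list were miR-124-3p, miR-9-5p, miR-9-3p, miR-138-5p and miR-137-3p. All were detected, with a summed level of 43576 to 47773 RPM in the 4 libraries. MiR-9-5p took most of it, from 29300 RPM in WT2 to 36670 RPM in WT1, and the markers did not order the mice alike. MiR-124-3p ran from 7183 RPM in WT1 to 10834 RPM in WT2, and miR-138-5p from 1666 RPM in WT1 to 3948 RPM in APP3. In whole tissue, fewer neurons and less miRNA per neuron cannot be told apart.

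MiR-128-3p was by far the most abundant of the 6 rows. It had 28065 and 36979 RPM in WT1 and WT2, and 30248 and 33789 RPM in APP3 and APP4, and ranked between the fifth and the eighth place of all rows in each library. The AD mice lay between the WT mice, so the genotypes overlapped. Means were 32018 ± 2504 RPM (SD, n = 2) for the AD mice and 32522 ± 6303 RPM (SD, n = 2) for the WT mice.

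The 5p arms of miR-128 are the passenger strands of the duplex, and they were much scarcer. MiR-128-1-5p, from the R3hdm1 copy, had 467 and 344 RPM in WT1 and WT2, and 431 and 423 RPM in APP3 and APP4. Its order over the mice was the reverse of that of miR-128-3p, with WT1 highest and WT2 lowest, and both AD mice again lay between the WT mice. MiR-128-2-5p, from the Arpp21 copy, was the rarest row, with 184 and 252 reads in WT1 and WT2, and 260 and 162 reads in APP3 and APP4. These reads correspond to 7.05 RPM (95% Wilson interval 6.11 to 8.15), 11.4 RPM (10.1 to 12.9), 12.2 RPM (10.8 to 13.8) and 8.50 RPM (7.29 to 9.92). WT2 and APP3, which are siblings, were the higher libraries and WT1 and APP4, also siblings, the lower ones. Intervals cover counting error only, since PCR copies of a molecule are not independent.

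For miR-129 the arms were nearly equal. MiR-129-5p, the arm with reported roles in synaptic downscaling, had 965 and 778 RPM in WT1 and WT2, and 844 and 928 RPM in APP3 and APP4. MiR-129-2-3p had 1013 and 1207 RPM in WT1 and WT2, and 914 and 1048 RPM in APP3 and APP4. The 5p arm was lowest and the 3p arm highest in the same mouse, WT2. MiR-129-1-3p had 119 and 136 RPM in WT1 and WT2, and 112 and 128.7 RPM in APP3 and APP4, the same order of the mice as miR-129-2-3p. All 6 rows overlapped between the genotypes, while among the 623 miRNAs tested below 36.0% did not.

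**Figure D1:**
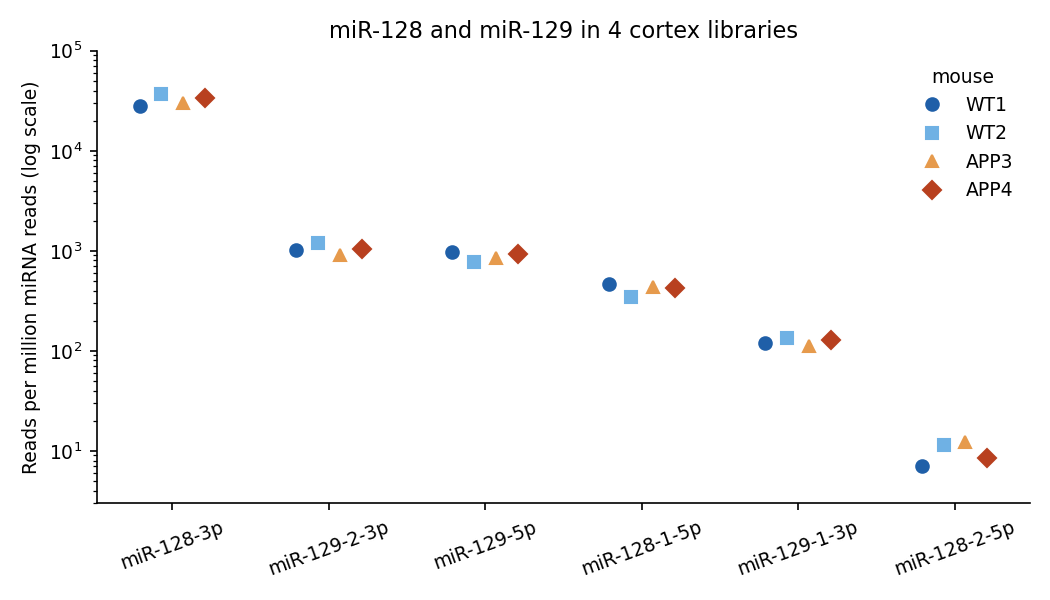
Level of each of the 6 rows in reads per 1000000 miRNA reads (vertical axis, log scale) in each of the 4 mice (WT1 and WT2 in blue, APP3 and APP4 in orange and red). The rows span from 7.05 RPM to 36979 RPM, and the AD mice do not separate from the WT mice in any row.

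Ordered by mean level, miR-128-3p was followed by miR-129-2-3p, miR-129-5p, miR-128-1-5p, miR-129-1-3p and miR-128-2-5p, and each of these steps held in 4 of 4 libraries. A read covers a whole miRNA, so no length scale was needed, but sequences differ in how well adapters are ligated to them, and ratios between rows are ratios of reads. MiR-128-3p exceeded miR-129-2-3p between 27.7-fold and 33.1-fold. The step from miR-129-2-3p to miR-129-5p was the only one whose ranges over the mice overlapped, with a mean log2 ratio of 0.25 ± 0.26 (SD, n = 4), about the size of its spread. The spread of a row over the 4 mice, as log2 of the highest over the lowest RPM, was 0.40 for miR-128-3p, 0.31 for miR-129-5p and 0.79 for miR-128-2-5p. Its median was 0.46 over the 252 miRNAs that averaged 50 RPM or more. MiR-128-2-5p, which averaged 9.80 RPM, is not among them, and its low reads add counting error to its spread.

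Ratios of arms and copies are free of the scaling, as their reads come from the same library. The 5p rows took 1.66% of the miR-128 reads in WT1 (95% Wilson interval 1.63 to 1.69) and 1.26% in its sibling APP4 (1.23 to 1.29), and 0.952% in WT2 (0.931 to 0.973) and 1.44% in its sibling APP3 (1.42 to 1.47). The guide arm miR-128-3p thus outnumbered miR-128-1-5p 60.1-fold in WT1 and 79.9-fold in its sibling APP4, and 107.5-fold in WT2 and 70.2-fold in its sibling APP3. WT2 was the mouse with the fewest passenger reads, and the AD mice lay between the WT mice.

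Of the miR-128 passenger reads, nearly all carried the sequence of Mir128-1, with 98.5% in WT1 (98.3 to 98.7) and 98.0% in its sibling APP4 (97.7 to 98.3), and 96.8% in WT2 (96.4 to 97.2) and 97.2% in its sibling APP3 (96.9 to 97.6). MiR-128-1-5p exceeded miR-128-2-5p 66.0-fold in WT1 and 49.6-fold in its sibling APP4, and 30.1-fold in WT2 and 35.2-fold in its sibling APP3. This ratio varied 2.19-fold over the mice, and was lower in both siblings of group 2 than in both siblings of group 1. It describes the passenger arms only, as the miR-128-3p reads of the 2 copies could not be separated.

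MiR-129-5p took 46.0% of the miR-129 reads in WT1 (45.6 to 46.5) and 44.1% in its sibling APP4 (43.6 to 44.6), and 36.7% in WT2 (36.2 to 37.1) and 45.1% in its sibling APP3 (44.7 to 45.6). WT2 fell below the others by far more than the counting error, and the other 3 mice lay within 2 percentage points of each other. Of the 3p reads of miR-129, miR-129-2-3p took 89.5% in WT1 (89.2 to 89.9) and 89.1% in its sibling APP4 (88.6 to 89.5), and 89.9% in WT2 (89.5 to 90.2) and 89.1% in its sibling APP3 (88.7 to 89.5). The proportion of the copies varied little over the mice, with ratios from 8.14 to 8.89. The genotypes did not overlap in this ratio and did in the other 3. Among the ratios of 5p to 3p reads of 136 hairpins, 25.7% did not overlap between the genotypes. Those are ratios of arms, and a like share for ratios of copies was not taken.

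The 4 ratios were compared between the genotypes with a two-sided exact permutation test over the mice, in which 2 mice against 2 cannot give a p below 0.333. The exact permutation p was 1 for the first 3 ratios and 0.333 for miR-129-2-3p over miR-129-1-3p, and 1 for each after the Benjamini-Hochberg adjustment over the 4. The log2 ratio of miR-129-2-3p to miR-129-1-3p differed by -0.09 between the AD and the WT mice, with means of 3.03 ± 0.004 (SD, n = 2) in the AD mice and 3.12 ± 0.04 (SD, n = 2) in the WT mice. For the other ratios the SD of the WT mice alone was at least 0.39.

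**Figure D2:**
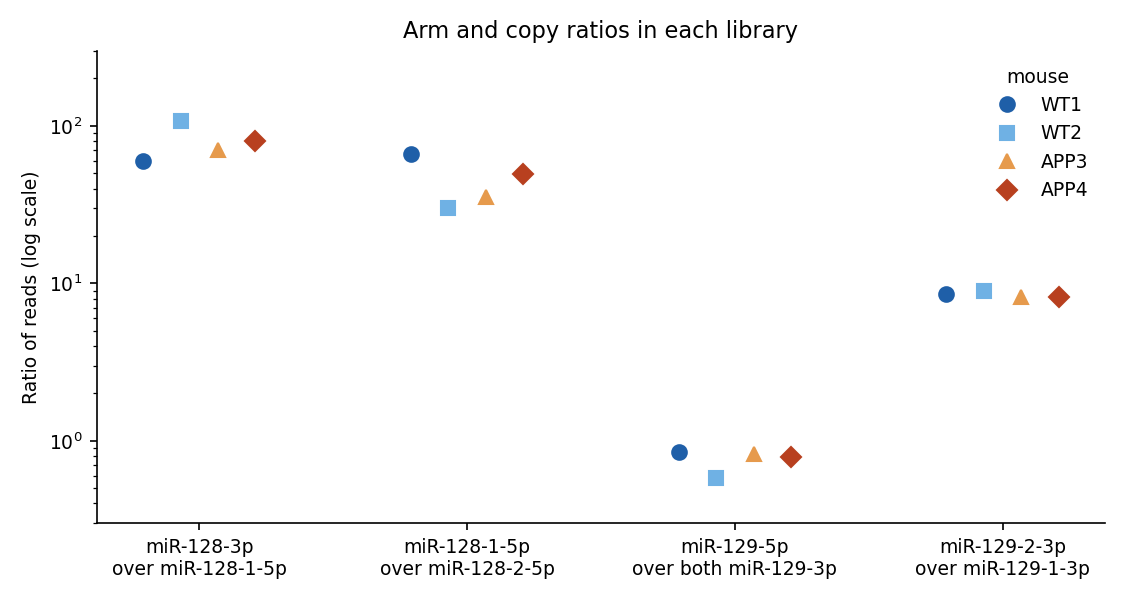
Ratio of reads between arms or copies (vertical axis, log scale) in each mouse, for 4 ratios within the miR-128 and miR-129 rows. The first 3 ratios set WT1 and WT2 at the opposite ends of the range, from 60.1 to 107.5 for miR-128-3p over miR-128-1-5p, while miR-129-2-3p over miR-129-1-3p stays between 8.14 and 8.89.

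WT2 had the lowest share of 5p reads in both families, so the arms of other hairpins were read in the same way. In 136 hairpins with at least 50 reads on each arm in every library, the log2 ratio of 5p to 3p reads was lowest in WT2 in 31.6%, in APP3 in 28.7%, in WT1 in 22.1% and in APP4 in 17.6%. The WT2 value minus the mean of the other mice was -0.61 for miR-128 and -0.50 for miR-129, against a median of -0.01 (quartiles -0.34 and 0.22) over the 136 hairpins. A lower value than that of miR-128 was found in 6 of the 136 and a lower value than that of miR-129 in 12. This comparison is a description of 1 mouse, with no test.

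Within the sibling groups the rows moved little, and mostly in opposite directions. Log2 differences below have 0.5 read added, with a standard error (SE) for the counting of reads alone, and Fisher's exact test (two-sided), with a false discovery rate (FDR) after Benjamini and Hochberg, compared the 2 libraries of a group, not the genotypes. MiR-128-3p was higher in APP4 than in WT1 by 0.27 (SE 0.002), a 1.20-fold difference. In group 2 it was lower in APP3 than in WT2, with a log2 difference of -0.29 (SE 0.002). MiR-128-1-5p moved the other way in each group, with -0.14 (SE 0.02) and 0.32 (SE 0.02).

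MiR-129-5p differed by -0.06 (SE 0.01) in group 1 and by 0.12 (SE 0.02) in group 2. MiR-129-2-3p differed by 0.05 (SE 0.01) and by -0.40 (SE 0.01), the largest difference among the rows in a group, and miR-129-1-3p by 0.12 (SE 0.04) and -0.28 (SE 0.04). MiR-128-2-5p was the exception, with 0.27 (SE 0.16) and 0.10 (SE 0.13), and did not pass the test in either group (FDR 0.185 and 0.682). In RPM, WT2 was the highest or the lowest mouse in each of the 5 rows whose direction differed between the groups. The share of all miRNAs with WT2 at an end of the range was not taken, and the rows include arms of the same hairpins.

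At an FDR under 0.05, 5 of the 6 rows differed in group 1, where 40.3% of all miRNAs did, and 5 of the 6 in group 2, where 36.0% did. At these read numbers very small differences pass the test. With the limit of at least 1.5-fold that the study's methods add, 0 of the 6 rows were called in group 1, where 11.6% of the 899 miRNAs with a read were, and 0 of the 6 in group 2, where 6.81% of 896 were. These shares come from the tests run here on the deposited reads, and the paper lists fewer changed miRNAs in each group. The scaling set some of the directions. With library sizes corrected by the trimmed mean of M values (TMM), each log2 difference moved by -0.25 in group 1 and by -0.02 in group 2. In group 1 miR-128-3p was then at 0.01, miR-129-2-3p at -0.20 and miR-129-1-3p at -0.14, so 2 rows were higher and 4 lower in the AD mouse, where without TMM 4 were higher and 2 lower. With both scalings 3 rows were higher and 3 lower in group 2.

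With the mice as replicates, edgeR's quasi-likelihood test with TMM and Benjamini-Hochberg adjustment called 0 of the 6 rows between the AD and the WT mice. All 6 rows had passed its filter on low counts, and 0% of the 623 miRNAs tested were called. At an unadjusted p under 0.05 there were 0 of the 6 rows, and 5.78% of the 623 miRNAs. DESeq2 also called 0 of the 6 rows. Both methods estimate the spread of a miRNA from 2 mice per genotype and draw it towards that of the other miRNAs tested. The p-values and intervals thus rest in part on spread shared among miRNAs.

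The log2 difference of the AD from the WT mice in edgeR was -0.15 (SE 0.20) for miR-128-3p, with a 95% interval of -0.63 to 0.32, and its adjusted p was 0.958. These bounds correspond to between 0.647 and 1.25 times the WT level. For miR-129-5p the log2 difference was -0.12 (SE 0.21), with an interval of -0.60 to 0.36 and an adjusted p of 0.972. MiR-129-2-3p had the largest difference of the rows, with -0.31 (SE 0.18), an interval of -0.73 to 0.10 and an adjusted p of 0.929. The other rows had log2 differences of -0.22 for miR-129-1-3p, -0.07 for miR-128-1-5p and 0.06 for miR-128-2-5p, and each interval held 0. The median of the 6 rows was -0.14, and that of all 623 miRNAs -0.02. Without TMM these medians were 0.001 and 0.11, and 3 of the 6 rows were higher in the AD mice instead of 1.

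With APP4, the library with the epithelial markers, left out, the log2 differences of the 6 rows lay between -0.36 and 0.34, and the smallest adjusted p was 0.996 in edgeR. A lone AD mouse is then assumed to vary like the WT mice. The reads were also summed over the rows of each miRNA. The miR-128 sum was 28539 and 37334 RPM in WT1 and WT2, and 30691 and 34220 RPM in APP3 and APP4, and the miR-129 sum was 2096, 2120, 1870 and 2105 RPM in the same mice. In the miR-129 sum WT1, WT2 and APP4 lay close together, and APP3 stood below them.

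**Figure D3:**
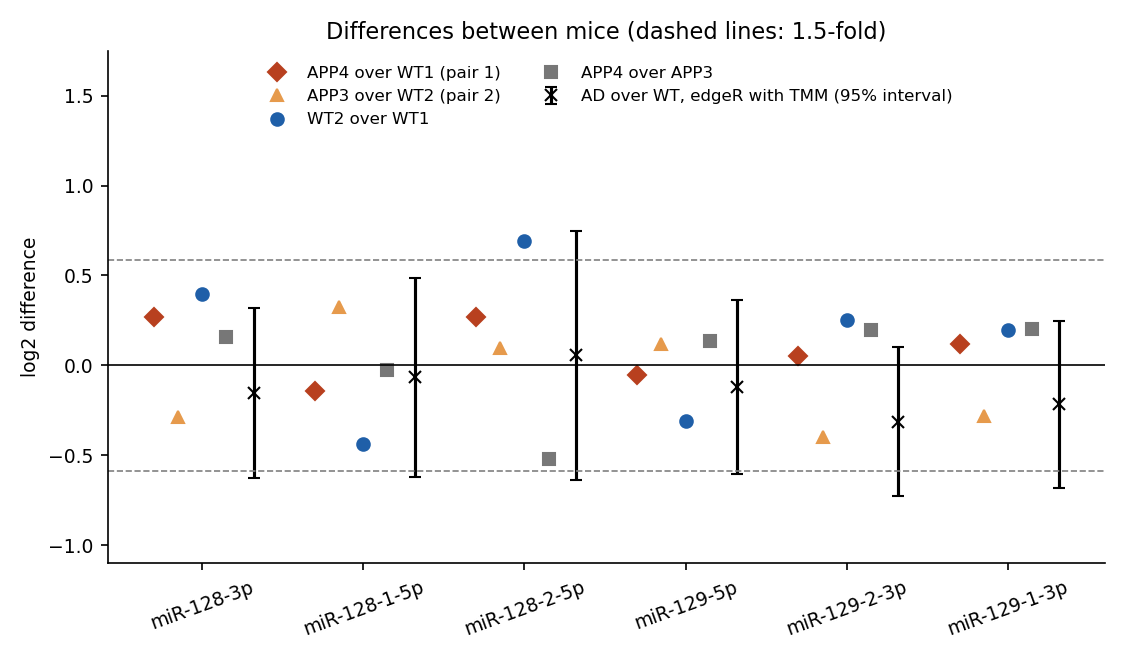
Log2 difference (vertical axis) of each of the 6 rows between siblings (APP4 over WT1, APP3 over WT2), from WT1 to WT2 and from APP3 to APP4, with edgeR's estimate for AD over WT and its 95% interval as black crosses and bars. The sibling differences stay inside the dashed lines at 1.5-fold, and every interval spans 0.

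The WT mice differed from each other by more than the siblings did in 4 of the 6 rows, and the AD mice in 2. The log2 difference of WT2 from WT1 was 0.40 for miR-128-3p, -0.44 for miR-128-1-5p, 0.69 for miR-128-2-5p and -0.31 for miR-129-5p. For each of these 4 rows it was larger in size than the difference in either sibling group. For miR-129-2-3p it was 0.25 and for miR-129-1-3p 0.20, less than the difference in group 2. The log2 difference of APP4 from APP3 was larger in size than both sibling differences for miR-128-2-5p (-0.52) and miR-129-5p (0.14). It was 0.16 for miR-128-3p and -0.03 for miR-128-1-5p, less than in either sibling group, and 0.20 for both miR-129-2-3p and miR-129-1-3p, less than in group 2.

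The miRNAs most like miR-128-3p and miR-129-5p over the 4 mice were found by the root mean square difference of log2 RPM, each centred on its mean. Among 250 miRNAs of at least 50 RPM, miR-24-2-5p lay nearest to miR-128-3p, at 0.03, followed by miR-133a-3p and miR-222-3p, both at 0.05. MiR-24-2-5p had 145.5 and 180.4 RPM in WT1 and WT2, and 148 and 168 RPM in APP3 and APP4. All 3 share with miR-128-3p its highest level in WT2 and its lowest in WT1. Nearest to miR-129-5p were miR-101a-3p and miR-21a-5p, both at 0.02, and miR-9-5p at 0.04. MiR-101a-3p had 2879 and 2339 RPM in WT1 and WT2, and 2457 and 2764 RPM in APP3 and APP4. MiR-128-3p and miR-129-5p lay 0.25 apart, with WT1 and WT2 at opposite ends. With 4 mice, such likeness is a description.

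**Figure D4:**
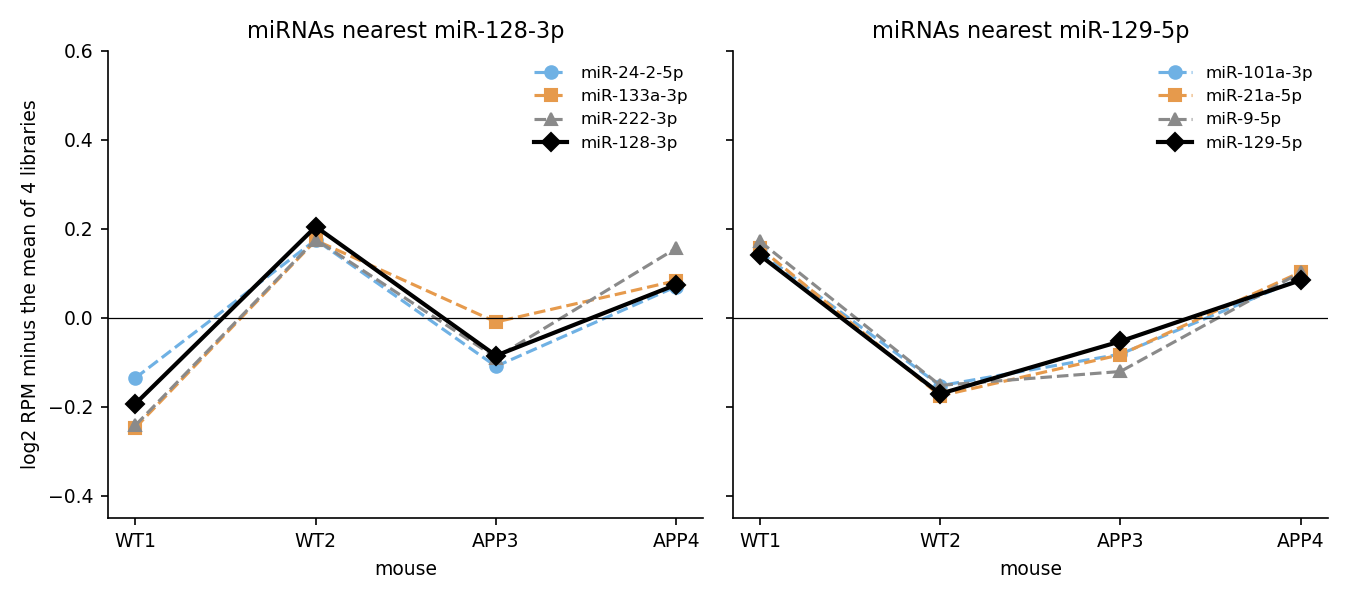
Log2 RPM minus the mean of the 4 libraries (vertical axis) in each mouse for miR-128-3p (left) and miR-129-5p (right), each in black with its 3 nearest miRNAs; lines only join the points of a miRNA. MiR-128-3p is highest and miR-129-5p lowest in WT2.

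Other miRNAs known in the control of excitability, synaptic strength or seizures were read from a list of 21, all of which were detected. Of the 21, 2 were called in each sibling group by Fisher's exact test with the 1.5-fold limit, and both were higher in the AD mouse each time, namely miR-138-5p, which acts on dendritic spines, and miR-211-5p. Of all miRNAs, 11.6% were called in this way in group 1 and 6.81% in group 2, so the share of the list lay near the background. MiR-138-5p had 1666 and 2447 RPM in WT1 and WT2, and 3948 and 3174 RPM in APP3 and APP4. MiR-211-5p had 15.7, 17.0, 33.3 and 25.6 RPM in the same mice. Both AD mice exceeded both WT mice in each, as for 36.0% of the 623 miRNAs either way. With TMM library sizes miR-211-5p was no longer called in group 1, at a log2 difference of 0.45.

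In edgeR 0 of the 21 were called, and the smallest adjusted p was 0.768. The median log2 difference of the 21 was -0.08, beside -0.02 over all miRNAs tested. MiR-132-3p, which is induced by neuronal activity, had 4618 and 4113 RPM in WT1 and WT2, and 5358 and 5123 RPM in APP3 and APP4, with a log2 difference of 0.13 (SE 0.19) in edgeR and an adjusted p of 0.967. MiR-134-5p, a regulator of dendritic spines, had 158, 175, 137 and 167 RPM in the same mice, with a log2 difference of -0.27 (SE 0.20) and an adjusted p of 0.939 in edgeR. Both AD mice exceeded both WT mice in miR-132-3p, while in miR-134-5p the genotypes overlapped, and neither passed the test.

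Of the lists for other cell types, the 3 oligodendrocyte markers summed to between 1793 and 2140 RPM over the 4 mice, and 0 of them were called in either sibling group. The 4 markers of microglia and leukocytes summed to between 1120.4 and 1309 RPM, of which miR-146a-5p took most. MiR-146a-5p had 1149 and 1071 RPM in WT1 and WT2, and 1023 and 1209 RPM in APP3 and APP4. MiR-223-3p had 4.52, 5.89, 6.07 and 5.72 RPM in the same mice. Both overlapped between the genotypes and were called in neither group. MiR-142-3p had 1.88 and 1.45 RPM in WT1 and WT2, and 2.92 and 3.41 RPM in APP3 and APP4. It was called in both groups, each time as higher in the AD sibling, on 49, 32, 62 and 65 reads in the same mice. MiR-142-5p, from the other arm of that hairpin, had 54.7, 74.3, 88.4 and 90.9 RPM in WT1, WT2, APP3 and APP4. It was called higher in group 1, where its log2 difference with TMM library sizes was 0.48, under the 1.5-fold limit. The 3 red blood cell markers summed to between 3206 and 4626 RPM, with the lowest sum in APP4. MiR-486-5p, which took most of the sum, had 3900 and 4417 RPM in WT1 and WT2, and 3881 and 3053 RPM in APP3 and APP4. Without TMM it was not called in either group, while miR-451a and miR-144-3p were called higher in APP4 than in WT1 in group 1. With TMM library sizes miR-486-5p was at a log2 difference of -0.61 in group 1, beyond the 1.5-fold limit. MiR-144-3p was then at 1.30 and miR-451a at 0.42, the latter under the limit.

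The summed level of the vessel markers, of which 3 of 4 were matched, was lower in both AD mice (29895 RPM in APP3 and 24254 RPM in APP4) than in WT1 (31224 RPM) and WT2 (32293 RPM). Its members moved in different directions. MiR-143-3p, of smooth muscle, had 23902 and 24328 RPM in WT1 and WT2, and 20760.2 and 16628 RPM in APP3 and APP4. The endothelial miR-126-3p had 797 and 849 RPM in WT1 and WT2, and 893 and 1058 RPM in APP3 and APP4, so both AD mice exceeded both WT mice. MiR-126-5p overlapped between the genotypes. Without TMM 0 of the vessel markers were called in either group. With TMM library sizes miR-143-3p was at a log2 difference of -0.78 in group 1, beyond the 1.5-fold limit. MiR-126-3p was then at 0.15 and miR-126-5p at -0.24 in group 1, and miR-143-3p was at -0.25 in group 2. In edgeR 0 of the markers of any list were called. The part of these cell types in the values of miR-128 and miR-129 was not tested.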

How the data were processed

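Cortical small RNA of 4 mice was sequenced, 1 library per mouse. The authors trimmed the reads, kept those of 18 to 35 bases, matched them to miRBase 19.0, and deposited raw counts per mature miRNA, which were used here. The methods of the paper state that no mismatch to miRBase was allowed, while its summary of annotated reads lists miRBase reads with mismatches. In each library the miRNA sum used here exceeds the perfectly matched miRBase reads of that summary, so the counts hold reads with mismatches. How these reads were assigned to rows is uncertain. The deposited TPM columns are reads per 1000000 clean reads, not per miRNA reads as RPM is here, and served only as an alternative scaling. The labels' processing notes name mm9 and CASAVA 1.8, while the paper names GRCm38. The counts carry no coordinates, and hairpins were placed with RefSeq and GENCODE on GRCm38.

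Counts were divided by the miRNA sum of the library, 19048747 to 26085776 reads. Siblings were compared with Fisher's exact test (scipy 1.17.1), and genotypes with edgeR 4.0.16 (R 4.3.3, filterByExpr, TMM, quasi-likelihood test). DESeq2 1.42.0, a sibling block, other scalings, filters and limits, summed rows and each mouse left out were the alternatives. The pairing comes from the study's methods. Deviations of siblings from their genotype means correlated with r = 0.23 across 252 miRNAs. Both tests were tried on simulated data.

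The members, gene lists and tests were chosen with earlier results of these data known. Named were all rows of either number, the excitability list, the cell type markers and the 3 miRNAs nearest to miR-128-3p and miR-129-5p.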

Additional observations from a re-analysis of the deposited data

Results flagged for a closer look

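In 5 of the 6 rows the sibling groups moved in opposite directions, and the difference between the groups was not tested, because a group holds 1 mouse of each genotype. The log2 difference of APP4 from WT1 minus that of APP3 from WT2 was 0.56 for miR-128-3p, 0.45 for miR-129-2-3p and 0.40 for miR-129-1-3p. It was -0.47 for miR-128-1-5p and -0.17 for miR-129-5p. TMM library sizes left opposite signs in 3 of the 6 rows. Over the 623 miRNAs tested in edgeR, 45.6% had opposite signs without TMM.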

How the results depend on the processing

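None of the 6 rows was called in the sibling groups or in edgeR under any alternative that was run. In edgeR the count of all miRNAs called rose from 0 to 2 with the sibling pair as a block and to 2 with DESeq2, and lay between 0 and 21 with each mouse left out, with 21 without APP3, 5 without APP4, 3 without WT1 and 0 without WT2. The block changed no call of the 6 rows. Among these rows, edgeR without TMM turned miR-128-1-5p to 0.075 and miR-129-5p to 0.024 (log2). With each mouse left out, miR-128-1-5p lay between -0.28 and 0.22, miR-128-2-5p between -0.30 and 0.41, miR-128-3p between -0.30 and 0.036, and miR-129-5p between -0.28 and 0.095. The positive values of miR-128-1-5p (0.22) and miR-129-5p (0.095) came without WT1, that of miR-128-3p (0.036) without WT2, and miR-128-2-5p was at -0.22 without WT1 and -0.30 without APP3. TMM turned miR-129-2-3p to -0.20 and miR-129-1-3p to -0.14 in group 1. All miRNAs called in group 1 numbered 104, against 32 on values scaled to 1000000, 53 with at least 10 RPM and 50 at a 2-fold limit. In group 2 they numbered 61, against 23, 30 and 23. Of the excitability list, 2 were called in each group, against 1 in each on scaled values, 1 in group 1 with TMM and 0 in each at 2-fold. Per 1000000 clean reads the mean was 752 for miR-129-5p, 897 for miR-129-2-3p and 106 for miR-129-1-3p, against 879, 1045 and 124 RPM. The causes were not tested. Depth limits miR-128-2-5p, the only row under 300 reads.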

Other observations

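The seed of miR-128-3p, CACAGUG, overlaps that of miR-27, shown with its seed in capitals.
miR-27b-3p: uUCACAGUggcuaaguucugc
miR-27a-3p: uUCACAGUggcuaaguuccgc
The shared letters CACAGU begin 1 base later in miR-27 than in miR-128-3p, counted from the 5′ end. Among the 754 rows matched to RefSeq, 0 others had the full seed of miR-128-3p, and miR-672-3p was the third row that holds the 6 letters at a shifted place. MiR-27b-3p was close to miR-128-3p in reads, with 27212 and 26097 RPM in WT1 and WT2, and 26186 and 25560 RPM in APP3 and APP4. MiR-27a-3p had 481 and 565 RPM in WT1 and WT2, and 534 and 566 RPM in APP3 and APP4. The seeds of miR-129-5p and miR-129-2-3p were found in 0 other matched rows. MiR-129-1-3p, with no matched sequence, was outside this search. The seed letters of miR-129-2-3p, AGCCCUU, also occur in the 3p stretch of the Mir129-1 hairpin shown above.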
